A study of Homo sapiens with 6 samples.

Results

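Notch receptors, Notch ligands and the HES and HEY genes that Notch switches on were followed in the human melanoma cell line LOX-IMVI. The set held 10 genes of the 47432 listed in the tables. These were the receptors NOTCH1, NOTCH2 and NOTCH3, the ligands JAG1 and JAG2, and the targets HES1, HES4, HEY1, HEYL and NRARP. They were chosen from the names of the pathway when it was already known that HES4 was lower in the knockdown libraries, to ask whether other Notch targets moved with it. Their differences between the groups are therefore given as a description. Where one of them is placed above or below a threshold, this too describes the choice and is not evidence for it.

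Total RNA was sequenced from cells transduced with a lentiviral pLKO.1 short hairpin RNA (shRNA) construct, which was either a control (shCtrl) or directed at NFKBIZ (shNFKBIZ), and then selected with puromycin. NFKBIZ encodes IκBζ, a nuclear co-regulator of NF-κB and STAT target genes. Each group had 3 libraries, which the study describes as independent experiments. One hairpin was used against NFKBIZ, so that loss of IκBζ and any other effect of this hairpin cannot be told apart. In bulk RNA, fewer cells that express a gene and less RNA per cell cannot be told apart either.

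Notch receptors are membrane proteins that are activated by ligands on neighbouring cells. Ligand binding exposes the receptor to the protease ADAM10 and then to the γ-secretase complex, which releases the intracellular domain of the receptor. This domain enters the nucleus, binds the DNA-binding protein RBPJ and its coactivator MAML, and switches on genes of the HES and HEY families, which encode transcriptional repressors. NRARP is also induced, and it limits Notch signalling in return. In melanocytes, Notch signalling is known for maintaining the stem cells of the lineage, and it has been tied to melanoma growth.

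RBPJ recognises DNA with the core TGGGAA. Promoter sequences of RefSeq on GRCh38.p14, which cover 250 bases before and 50 after each start, were found for every gene of the set except HEY1. The core was present, on either strand, in HES1, HES4 and HEYL, which are all targets, and these letters were not in the windows of NRARP, the receptors or the ligands. Of all 35116 promoters in the table, 8439 contain it. The stretch from base 100 to base 51 before the start is shown for these targets, on the strand of the gene and with the core in capitals, because it holds the match of HES4 and both matches of HES1.
HES1 (chr3:194136048-194136097, plus strand): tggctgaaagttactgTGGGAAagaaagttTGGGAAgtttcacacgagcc
HES4 (chr1:1000148-1000197, minus strand): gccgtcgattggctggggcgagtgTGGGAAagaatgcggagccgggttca
HEYL (chr1:39639694-39639743, minus strand): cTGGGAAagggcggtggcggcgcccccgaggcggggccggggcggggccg

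Counted from the RefSeq start, HES1 had the core at positions -84 and -70, and HES4 had it once, at position -76. For HES1 and HEYL this is also the start of the gene model used for counting. The model of HES4 starts 75 bases farther upstream, inside the stretch shown for HES4, so that position -76 holds for the RefSeq start only. Over the 250 bases before the start, the longest run shared by HES1 and HES4 had 12 bases, tgTGGGAAagaa, and it includes the core. The longest run shared by HES4 and HEYL had 11 bases and that of HES1 and HEYL had 8, both without the core. HEYL had the core at position -99 and again on the other strand, at position -178. A match of 2 GAAA blocks with any 2 bases between them, the form of the interferon-stimulated response element (3.57% of all promoters), was not found in these windows. The class C E-box CACGNG, which HES and HEY proteins can bind, was found on either strand in NOTCH2, NOTCH3, JAG1, JAG2, HES1 and NRARP and occurs in 30.5% of all promoters. The NF-κB consensus motif was found in NOTCH2 and HES1, against 5.91% of all promoters. These matches describe the letters only, and no binding was measured here.

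The libraries held 22264473 to 24624839 total exon reads. NFKBIZ itself had 1519, 1629 and 1674 exon reads in the shCtrl libraries and 474, 477 and 468 in the shNFKBIZ libraries, with a log2 fold change of -1.78 (SE 0.0581). Of the melanocyte lineage markers, SOX10 and MLANA had no exon read in any library, and MITF was the only one of 7 with at least 10 exon reads in every library. Of 5 markers of dedifferentiated melanoma, AXL, WNT5A, EGFR and SOX9 were expressed, with WNT5A called lower and SOX9 called higher in shNFKBIZ, and NGFR had at most 3 reads in a library. The 5 leukocyte markers summed to at most 0.727 TPM (reads per exon length, scaled to a fixed library total) and the 5 endothelial markers to at most 0.954 TPM in any library. The keratinocyte list summed to 60.0 to 72.1 TPM in shCtrl and 73.1 to 80.7 TPM in shNFKBIZ, nearly all of it KRT10. KRT1 had no read, and KRT14 was called higher, from 0.570 ± 0.228 to 1.59 ± 0.228 TPM (SD, n = 3). The filter on low counts kept KRT14 only through shNFKBIZ, the group in which it was higher, so nothing is read from its call.

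Genes were compared on exon reads with the quasi-likelihood test of edgeR over 13843 genes. A gene is called here if it had an adjusted P of at most 0.05 and at least a 2-fold change. Of all genes tested, 3.84% were called higher and 5.12% called lower in shNFKBIZ (532 and 709 genes), and these were 668 and 584 with library size alone as scaling. An adjusted P of at most 0.05 at any fold was reached by 32.8% of the genes tested as lower and by 32.5% as higher. Among the Notch genes, 8 of 10 had enough reads to be tested, and all 8 had a log2 fold change below 0, both in edgeR and in DESeq2. Of these, 4 were called lower (JAG1, JAG2, HES4 and NRARP), 3 were lower by less than 2-fold with an adjusted P of at most 0.05 (NOTCH1, NOTCH2 and HES1), and HEY1 did not reach it. NOTCH3 and HEYL had too few reads. JAG2 and NRARP were kept by the filter on low counts only through shCtrl, the group in which they were higher, and with at least 10 counts in every library 2 genes were called lower, JAG1 and HES4. The 3 values of each group, in counts per library total scaled by TMM factors, did not overlap in 7 of the 8 tested genes, where 68.7% of all genes tested had no overlap. The median log2 fold change was -0.98, against 0.00431 over all genes tested. Since the set was chosen on this contrast, nothing is read from these shares.

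**Figure D1:**
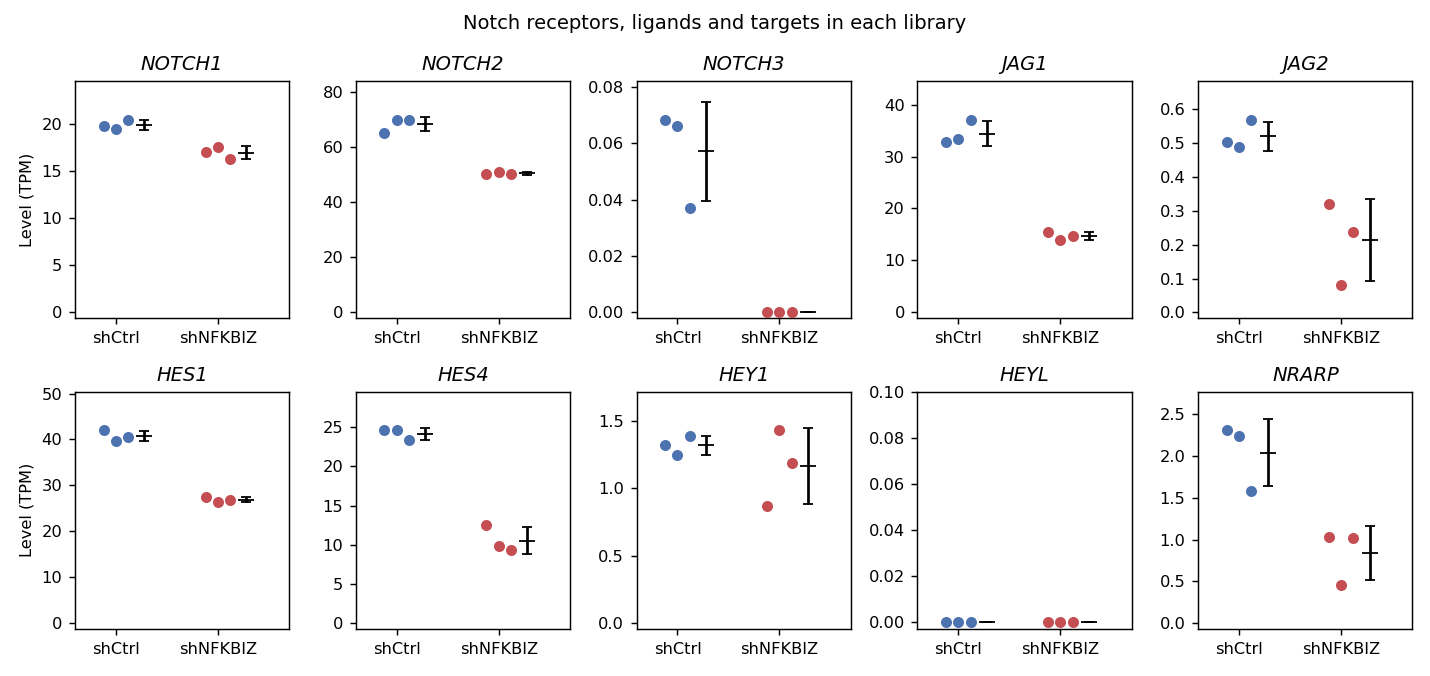
Level in TPM (y axis, from 0, on a scale of its own for each gene) of the 10 Notch genes in the 3 shCtrl (blue) and 3 shNFKBIZ (red) libraries, with the mean ± SD of each group in black. The groups are apart for JAG1, JAG2, HES1, HES4, NRARP, NOTCH1, NOTCH2 and NOTCH3, HEY1 overlaps, and HEYL is at 0 in every library.

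The levels of the Notch genes covered a wide range. In shCtrl cells the order of mean level per length was NOTCH2 (68.2 TPM), HES1 (40.7), JAG1 (34.3), HES4 (24.2), NOTCH1 (19.9), NRARP (2.04), HEY1 (1.32), JAG2 (0.520), NOTCH3 (0.0571) and HEYL (0). No neighbours in this order overlapped in their 3 values. NOTCH2 made up 76.5% to 78.1% of the summed TPM of the 4 receptors in shCtrl, and JAG1 78.4% to 81.2% of the summed TPM of JAG1, JAG2, DLL1, DLL3 and DLL4.

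HES4 (ENSG00000188290), a repressor of the HES family that is closely related to HES1, lies on chromosome 1 (998962 to 1000172, minus strand, hg38). It had 171, 177 and 150 exon reads in the shCtrl libraries and 82, 63 and 62 in the shNFKBIZ libraries. Its level was 24.6, 24.6 and 23.3 TPM in shCtrl and 12.5, 9.80 and 9.32 TPM in shNFKBIZ. Every shNFKBIZ library was thus far below every shCtrl library. The mean was 24.2 ± 0.781 TPM in shCtrl and 10.5 ± 1.73 TPM in shNFKBIZ (SD, n = 3). On the log2 scale the difference was -1.28 (SE 0.132), or 2.42-fold lower. HES4 had the highest GC content of the 10 genes (73.9% in its longest annotated transcript). With a trend on GC content and length removed, its log2 fold change was -1.32.

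HES1, the best studied repressor downstream of Notch, lies on chromosome 3 (194136148 to 194138732, plus strand). It has the 2 RBPJ cores shown above, both on the plus strand. It had 538, 525 and 481 exon reads in the shCtrl libraries and 331, 312 and 329 in the shNFKBIZ libraries. The levels were 42.0, 39.7 and 40.5 TPM in shCtrl and 27.5, 26.3 and 26.9 TPM in shNFKBIZ. HES1 was lower in every shNFKBIZ library, with little spread within either group. Its log2 fold change of -0.68 (SE 0.0672) is smaller in size than that of HES4. The difference between the HES1 and HES4 changes was not tested.

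NRARP, the feedback inhibitor that Notch induces, was low in all libraries. It had 38, 38 and 24 exon reads in the shCtrl libraries and 16, 7 and 16 in the shNFKBIZ libraries, or 2.31, 2.24 and 1.58 TPM against 1.03, 0.461 and 1.02 TPM. The groups did not overlap, and the log2 fold change was -1.36 (SE 0.302). Its SE is larger than that of HES4. Without shNFKBIZ replicate 2, which had the fewest reads, the log2 fold change was -1.06 and NRARP was still called.

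HEY1 and HEYL belong to the second family of Notch-induced repressors. HEY1 had 45, 44 and 44 exon reads in the shCtrl libraries and 28, 45 and 39 in the shNFKBIZ libraries, or 1.32, 1.25 and 1.39 TPM against 0.871, 1.43 and 1.19 TPM. One shNFKBIZ library was below and another above all shCtrl libraries. The log2 fold change was -0.26 (SE 0.208), and the ratio of summed reads per total exon reads was 0.888 (exact 95% interval 0.684 to 1.15), so that a 2-fold fall lies outside this interval, which covers counting error only. HEYL had no exon read in any library and no intron read, although its promoter window holds the RBPJ core. Taken for 1 library alone, a count of 0 has a 1-sided upper 95% limit of about 3 reads. With no read in any library, the joint limit per library is lower.

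Of the targets in the set, HES4 and NRARP were therefore called lower, HES1 was lower by less than 2-fold, HEY1 overlapped between the groups and HEYL was not detected. The summed TPM of the 10 HES and HEY genes HES1 to HES7, HEY1, HEY2 and HEYL was 78.9, 76.5 and 77.3 in shCtrl and 50.1, 47.5 and 47.0 in shNFKBIZ. HES1 held 51.9% to 53.3% of this sum in shCtrl and 54.7% to 57.2% in shNFKBIZ.

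JAG1 (ENSG00000101384), a transmembrane ligand of Notch receptors, was the most strongly expressed ligand. It lies on chromosome 20 (10637684 to 10673999, minus strand) and had 1888, 1991 and 1988 exon reads in the shCtrl libraries and 836, 744 and 819 in the shNFKBIZ libraries. The levels were 32.7, 33.3 and 37.1 TPM in shCtrl and 15.4, 13.9 and 14.8 TPM in shNFKBIZ. JAG1 was below the lowest shCtrl value in every shNFKBIZ library, and its mean was 34.3 ± 2.38 TPM in shCtrl and 14.7 ± 0.727 TPM in shNFKBIZ (SD, n = 3). Its log2 fold change was -1.30 with an SE of 0.0527, the smallest SE of the 4 Notch genes called lower.

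JAG2, the second Jagged ligand, was near the limit of detection. It had 20, 20 and 21 exon reads in the shCtrl libraries and 12, 3 and 9 in the shNFKBIZ libraries. All shNFKBIZ libraries were lower, with a log2 fold change of -1.35 (SE 0.364). This value depended on one library, since without shNFKBIZ replicate 2 the log2 fold change was -0.96 and JAG2 was no longer called. The summed TPM of the 5 ligands was 41.7, 41.2 and 45.7 in shCtrl and 21.3, 21.6 and 21.1 in shNFKBIZ.

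Of the receptors, NOTCH2 and NOTCH1 were lower by less than 2-fold. NOTCH2 lies on chromosome 1 (119911553 to 120100779, minus strand) and had 6785, 7524 and 6726 exon reads in the shCtrl libraries and 4932, 4900 and 4977 in the shNFKBIZ libraries. The mean level was 68.2 ± 2.66 TPM against 50.4 ± 0.464 TPM (SD, n = 3). Both groups were narrow and apart, and the log2 fold change was -0.52 (SE 0.0350). NOTCH2 shares sequence with the NOTCH2NL genes, of whose exon reads 9.46% to 28.8% were unique, whereas 97.4% of the NOTCH2 exon reads were unique. Counting unique reads gave a log2 fold change of -0.52 as well.

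NOTCH1, on chromosome 9 (136494433 to 136546048, minus strand), had 1545, 1571 and 1481 exon reads in the shCtrl libraries and 1257, 1267 and 1212 in the shNFKBIZ libraries. The levels were 19.8, 19.5 and 20.5 TPM against 17.1, 17.6 and 16.3 TPM. The groups did not overlap, but the log2 fold change of -0.31 (SE 0.0436) is small and was -0.22 with library size alone as scaling. NOTCH3, a receptor known from vascular smooth muscle, had 4, 4 and 2 exon reads in shCtrl and no exon read in shNFKBIZ. Its summed intron reads were 3 in shCtrl and 1 in shNFKBIZ. The ratio of summed NOTCH3 exon reads per total exon reads has an exact 95% upper limit of 0.470, which rests on 10 reads and covers counting error only.

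**Figure D2:**
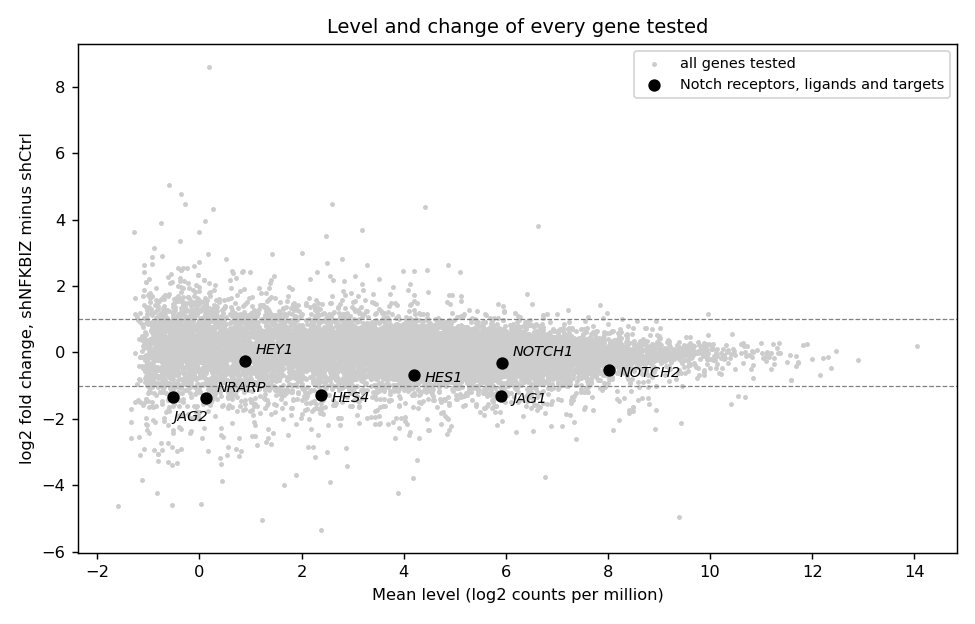
Mean level (x axis, log2 CPM, counts scaled to the library total with TMM factors) and log2 fold change of shNFKBIZ against shCtrl (y axis, dashed lines at 2-fold) for all 13843 genes tested (grey) and the 8 tested Notch genes (black). All 8 lie below 0, from -0.26 for HEY1 to -1.36 for NRARP, and of the 4 genes past 2-fold JAG1 lies farthest to the right.

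Reads in introns can come from RNA that is not yet spliced, and they were fitted in the same way over 12119 genes. Of these, 6.6% were called, with 3.89% lower and 2.71% higher, and 38.8% had an adjusted P of at most 0.05 at any fold, with 19.5% lower and 19.3% higher. They come from the same libraries and describe the same contrast. JAG1 had 88, 76 and 87 intron reads in shCtrl and 48, 46 and 44 in shNFKBIZ, so that the groups did not overlap, with a log2 fold change of -0.95 (SE 0.156). HES1 had 15, 14 and 22 intron reads against 7, 10 and 8, with a log2 fold change of -1.11 (SE 0.351). It was the only one of the 4 genes tested on intron reads that was called. However, the filter on low counts kept its intron reads only through shCtrl, the group in which they were higher, so nothing is read from this call. NOTCH2 (-0.44, SE 0.0973) and NOTCH1 (-0.45, SE 0.160) were lower, beside exon changes of -0.52 and -0.31. HES4 had 3 summed intron reads in shCtrl and 1 in shNFKBIZ, too few to detect a difference at this depth. NRARP and HEY1 had none.

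**Figure D3:**
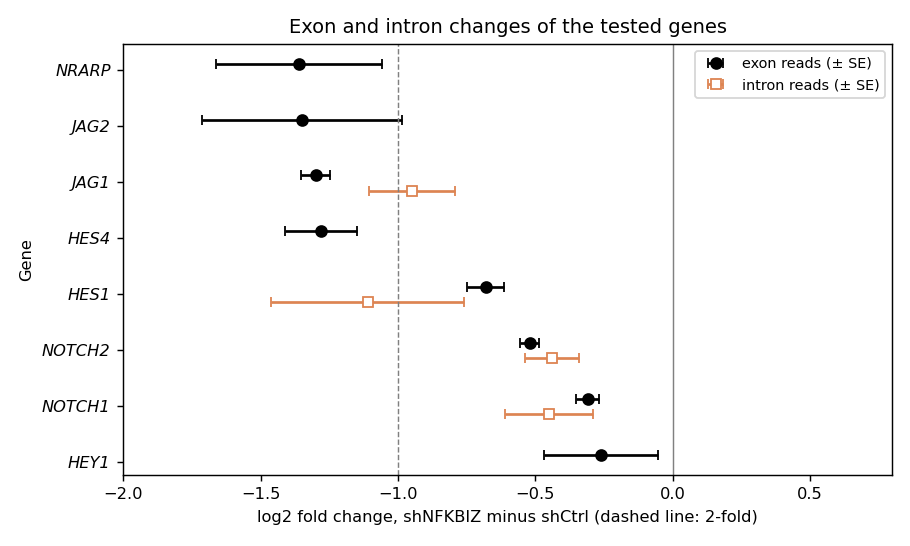
Log2 fold change ± SE of shNFKBIZ against shCtrl (x axis) on exon reads (black circles) and, where they could be tested, on intron reads (open squares) for the 8 tested Notch genes (y axis). Exon and intron changes of JAG1, NOTCH1, NOTCH2 and HES1 all lie below 0, and the intron value of HES1 has the widest error.

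Since both strands were counted together, overlapping or neighbouring genes could add reads to a value. In all, 17 genes overlap a gene of the set or start within 5 kb of its start, and 1 of them, ISG15, is protein coding and was tested. The others are miRNAs and long non-coding RNAs with at most 35 summed exon reads in a group. ISG15, an interferon-induced ubiquitin-like protein, is the neighbour of HES4 on the opposite strand. Its gene model in the tables starts 966 bases from that of HES4, and its RefSeq start is 13400 bases from the RefSeq start of HES4. ISG15 had 64.9, 64.1 and 63.8 TPM in shCtrl and 38.4, 35.1 and 35.3 TPM in shNFKBIZ. It fell by 0.91 on the log2 scale (SE 0.0837, adjusted P 3.61e-09, edgeR), which is less than 2-fold. Both neighbours were thus lower, and whether one depends on the other was not tested.

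The other genes of the pathway were taken from lists made by their textbook roles. They held 62 genes, of which 50 were tested, and 1 was called higher and 3 called lower, or 8.00% against 8.96% of all genes tested. Regardless of fold, 33 of the 50 had an adjusted P of at most 0.05, or 66.0% against 65.3% of all genes tested. By direction, 23 of the 50 (46.0%) were lower and 10 of the 50 higher at this P, against 32.8% and 32.5% of all genes tested, and this difference was not tested. The median log2 fold change was -0.11.

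**Figure D4:**
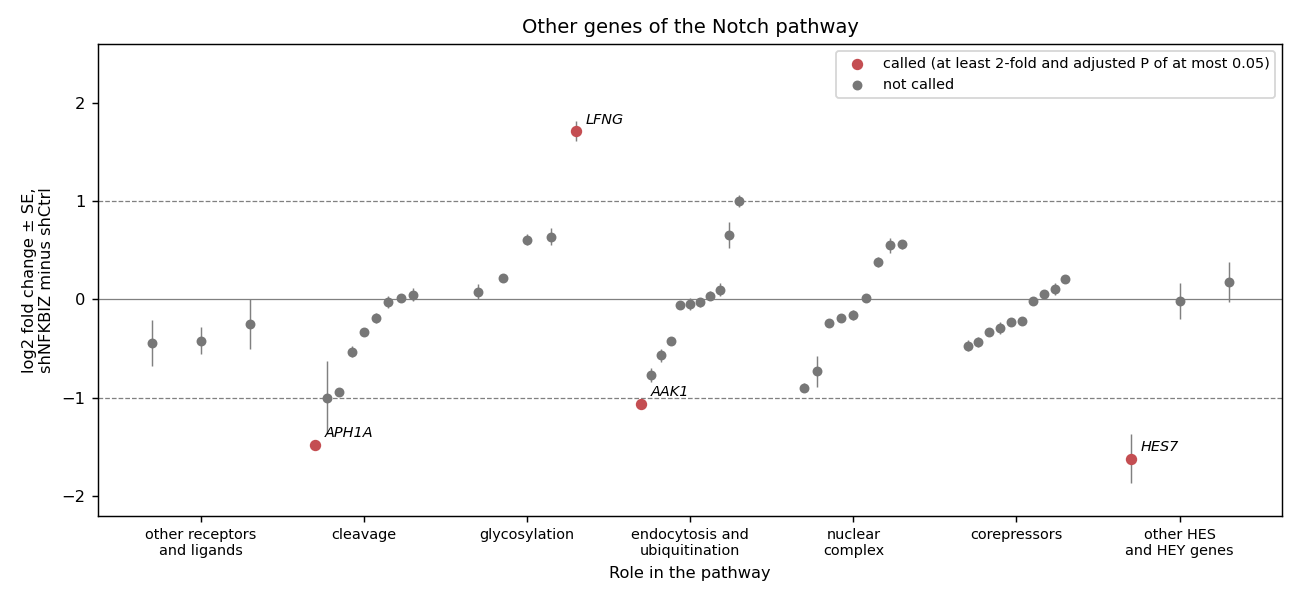
Log2 fold change ± SE of shNFKBIZ against shCtrl (y axis, dashed lines at 2-fold) for the 50 tested genes of the wider Notch pathway, by their role (x axis). Called genes are red, and they are LFNG above and APH1A, AAK1 and HES7 below 0.

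Among the genes for receptor cleavage, 1 of 9 was called. APH1A, a subunit of γ-secretase, had 114, 118 and 126 TPM in shCtrl and 42.8, 46.9 and 46.6 TPM in shNFKBIZ. It fell by 1.48 on the log2 scale (SE 0.0457, adjusted P 2.9e-17, edgeR), while its paralogue APH1B (0.05, SE 0.0649) did not pass. The few intron reads of APH1A went the other way, with 6, 5 and 5 in shCtrl and 14, 11 and 14 in shNFKBIZ. Their log2 fold change was 1.18 (SE 0.407) and was called. The filter on low counts kept them only through shNFKBIZ, the group in which they were higher, so nothing is read from this call. ADAM10, the protease of the first cleavage after ligand binding, fell by 0.94 on the log2 scale (SE 0.0390, adjusted P 4.83e-15, edgeR), just short of 2-fold. Its level was 44.7 ± 1.14 TPM in shCtrl and 24.6 ± 0.696 TPM in shNFKBIZ (SD, n = 3). PSEN2, a catalytic subunit of γ-secretase, had 13, 17 and 10 exon reads against 7, 8 and 5, of which 3.33% were unique. The filter on low counts kept it only through shCtrl, the group in which it was higher. For these reasons its value is uncertain.

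Of the 5 tested enzymes that add sugars to the receptor, 4 rose with an adjusted P within 0.05, where 32.5% of all genes tested did, and LFNG was called. LFNG, the fringe enzyme that lengthens O-fucose on Notch and shifts the response of NOTCH1 from Jagged towards Delta ligands, had 93, 91 and 90 exon reads in the shCtrl libraries and 297, 327 and 282 in the shNFKBIZ libraries. Its level was 4.35, 4.12 and 4.54 TPM against 14.7, 16.5 and 13.8 TPM. All shNFKBIZ libraries were above all shCtrl libraries, and LFNG rose by 1.71 on the log2 scale (SE 0.102, adjusted P 2.26e-12, edgeR), or 3.27-fold. Its intron reads rose as well (1.77, SE 0.186). POGLUT1 (0.64, SE 0.0905), EOGT (0.61, SE 0.0536) and POFUT1 (0.22, SE 0.0350) rose by less than 2-fold. RFNG (0.08, SE 0.0739) did not pass.

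Of 11 tested genes for endocytosis and ubiquitination, 1 was called. AAK1, a kinase of the clathrin adaptor, fell by 1.06 on the log2 scale (SE 0.0458, adjusted P 8.79e-15, edgeR), a value close to the threshold that was -0.97 and no longer called with library size alone. DTX3, of the Deltex ubiquitin ligase family, rose from 14.8 ± 0.500 to 31.2 ± 1.80 TPM (SD, n = 3; adjusted P 4.52e-12, edgeR), and its fitted change was just under 2-fold. Among the nuclear factors, 8 of 9 had an adjusted P within 0.05, with changes under 2-fold, beside 65.3% of all genes tested. The coactivators went in different directions, with MAML2 at -0.90 (SE 0.0453), MAML3 at -0.73 (SE 0.156) and MAML1 at 0.56 (SE 0.0416), and RBPJ was at -0.16 (SE 0.0501). Of 10 corepressors tested, 7 did so, close to the share of all genes, with log2 fold changes from -0.47 to 0.21 over all 10.

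Of the 7 other HES and HEY genes, 3 were tested. HES7, known as an oscillator of the segmentation clock, had 39, 49 and 44 exon reads in the shCtrl libraries and 11, 18 and 14 in the shNFKBIZ libraries, and it fell by 1.62 on the log2 scale (SE 0.252, adjusted P 7.39e-06, edgeR). HES6 (-0.02, SE 0.183) and HEY2 (0.18, SE 0.205) overlapped between the groups. HES3, HES5 and HELT had no read. The remaining ligands were low, and DLL3 fell by 0.42 on the log2 scale (SE 0.136, adjusted P 0.00988, edgeR) from 6.74 ± 0.399 to 5.34 ± 0.794 TPM (SD, n = 3).

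The genes whose log2 CPM ran most closely with HES4 over the 6 libraries, among 11492 genes with a mean of at least 50 counts, were DHX8, GPATCH8, ABHD8, C1QTNF1 and GUF1, with a Pearson r from 0.9967 to 0.9976. With 3 libraries on each side of one contrast such values are reached by genes of very different change, here from -0.16 for GPATCH8 to -2.69 for C1QTNF1 on the log2 scale.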

How the data were processed

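Total RNA of 6 libraries was sequenced, and the sample titles gave each group and replicate number. The authors mapped the reads to hg38 (Ensembl 109) with CLC Genomics Workbench 24.0 under default settings, without strand, with up to 10 hits per read, and deposited raw counts, in whole numbers, for exons, introns and whole genes, as total and unique reads. Multiply mapped fragments are in the total reads. TPM were calculated anew from the exon counts and exon lengths. The deposited TPM were used only as a check and differed from the new values by at most 4.98e-07. The deposited RPKM column was not analysed.

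Genes were compared on total exon reads with edgeR 4.0.16 in R 4.3.3 (filterByExpr, TMM factors, glmQLFit with robust estimation, glmQLFTest, two-sided, Benjamini-Hochberg adjustment over all genes tested). The SE is the log2 fold change divided by the square root of F. DESeq2 1.42.0 was an alternative. The fit was tested on simulated data. Intervals of summed reads are exact and cover counting error only. No replicate pair was a copy (chi-square divided by degrees of freedom, 1.71 to 4.45).

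The genes, the lists and the tests were chosen with earlier results of these data known. Named genes are the 10 of the set, called pathway genes, neighbours within 5 kb, NFKBIZ and the 5 genes closest to HES4. Those without a call that are named to describe a role (ADAM10, PSEN2, APH1B, POGLUT1, EOGT, POFUT1, RFNG, DTX3, RBPJ, the MAML genes, HES6, HEY2 and DLL3) were picked after their values were seen. Motifs were searched on both strands. GC content came from GENCODE 44 transcripts.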

Additional observations from a re-analysis of the deposited data

How the results depend on the processing

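HES4, JAG1 and NRARP kept their side of the threshold under every alternative that gave them a value, which is no independent support because the genes were chosen on this contrast in these 6 libraries. Their log2 fold changes ranged from -1.43 to -1.19, from -1.34 to -1.22 and from -1.54 to -1.06, and NOTCH1, NOTCH2, HES1 and HEY1 were below 0 under each. The number of Notch genes called lower was 2 with at least 10 counts demanded of each library, which left out JAG2 and NRARP, and 7 with no fold limit. It was 3 to 4 when 1 library was left out and 5 without a filter, where NOTCH3 was added. Over all genes, 338 were called higher with 10 counts in every library, and with no fold limit 9039 were called, 4496 higher and 4543 lower. Leaving out 1 library gave 1315 to 1361 genes. Of the other pathway genes, 10 were called higher and 23 lower with no fold limit. Those called higher were 2 with 10 counts in every library and with library size alone, and 1 to 2 when 1 library was left out, since DTX3 lies at the threshold. PSEN2 was called without shCtrl replicate 1 or 3 and without shNFKBIZ replicate 1 or 2 (log2 fold change -1.15 to -1.02). These calls are uncertain, since the filter on low counts kept PSEN2 only through shCtrl and few of its reads were unique. AAK1 was not called with library size alone (-0.97), the GC content and length trend removed (-0.98) or total gene reads. The ratio of group means moved by more than the replicate spread with CPM scaled by TMM factors in place of TPM, a change of both unit and scaling, for NOTCH1, NOTCH2 and HES1, with no change of direction.

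Replicate numbers were not taken as pairs, since the correlations of deviations within numbers 1, 2 and 3 were only 0.0207, 0.0561 and 0.0288. With a replicate block there were 1244 genes called, with 4 Notch genes lower, and no call among the Notch genes changed. Depth limits NOTCH3, HEYL, JAG2 and the intron reads of HES4.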
